A study of Mus musculus with 6 samples.

Results

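The canonical Wnt pathway was followed in PTECs, which are primary renal tubular epithelial cells, through 10 genes chosen by symbol: Axin2, Nkd1, Znrf3, Lef1, Tcf7l1, Tcf7l2, Ctnnb1, Axin1, Apc and Lrp6. They are 10 of the 46095 genes in the count table. All 10 of 10 passed the filter on low counts, which left 14611 genes for testing. The genes were chosen with the difference between the genotypes already known, Axin2's above all, so their fold changes are given below as a description with no test.

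RNA sequencing was done on PTECs freshly isolated from the kidneys of mice 10 weeks old on a C57 background, with 3 libraries in each of 2 genotype groups. Mice of the VHL-KO group carried Ksp-Cre with VHL fl/fl, and mice of the VHL-KO;SETD2-KO group carried Ksp-Cre with VHL fl/fl and Setd2 fl/fl. VHL deletion is therefore shared by the control libraries and no wild-type library was analysed here. Ksp-Cre is a Cdh16-cre transgene, which drives deletion in renal tubular cells and leaves the genes intact in the other cells of the kidney. The comparison asks what the added loss of Setd2, the enzyme that trimethylates H3K36, goes along with in PTECs of mice with VHL deletion.

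Libraries held 11168552 to 17883466 counts, and 3 counts were taken as the smallest detectable signal. This floor corresponded to 0.168 to 0.269 CPM, the usual scaling of counts by library size, here on raw totals. It allows for counting error only. Setd2 was checked first, because it is the deleted gene. It counted 1179, 799 and 132 reads under VHL-KO (replicates 1, 2 and 4, the order kept throughout) and 1499, 1019 and 1429 under VHL-KO;SETD2-KO (replicates 2, 3 and 4). Libraries labelled VHL-KO;SETD2-KO did not hold fewer Setd2 reads, and whether these reads fall inside the deleted part of the gene is not known from counts per gene, so VHL-KO and VHL-KO;SETD2-KO below mean libraries labelled so. By other measures (RT-qPCR, Western blots and immunohistochemistry) the study reported lower SETD2 and H3K36me3 in the renal tubules of its mice. Vhl, deleted in both groups, ranged from 139 to 276 counts under the first label and from 189 to 317 under the second. Xist, the RNA of the inactive X chromosome, had 11704 counts in VHL-KO;SETD2-KO replicate 3 and 0 to 4 in every other library. This is the pattern of female cells in that library and of male cells in the others, although the labels used here give no sex. Sex was then not balanced between the groups, and its part in the values was not tested. The library labelled VHL-KO replicate 4 stood apart. Its rank correlation with the other libraries over all tested genes was 0.717 to 0.765, whereas the other pairs of libraries lay between 0.937 and 0.986. Mitochondrial genes took 11.3% of its counts and 25.9% to 36.4% of the others'. Fold changes of the 10 genes and counts of called pathway genes are given with and without it.

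In canonical Wnt signalling a secreted ligand bridges a Frizzled receptor and the co-receptor Lrp5 or Lrp6, which stops a cytoplasmic complex of Axin, Apc, casein kinase and Gsk3 from marking beta-catenin for destruction. Beta-catenin then enters the nucleus and switches TCF/LEF factors from repression to activation. Axin2, Nkd1 and Znrf3 are feedback inhibitors that the pathway induces, and Axin2 is widely read as its reporter. In the kidney the pathway builds the nephron during development, is quiet in most adult tubules, and is known to return after injury and in fibrosis.

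Of the 10 genes, 6 have a promoter window in RefSeq's table for GRCm38.p6, from 250 bases before to 50 bases after a transcript start. These were Axin2, Nkd1, Lef1, Tcf7l1, Tcf7l2 and Ctnnb1, with 11 windows between them. The core TCF/LEF motif, spelled CTTTGAT or CTTTGAA, was searched on both strands. A window that holds both spellings was counted once. Of all 32851 windows of this length, 3.73% hold CTTTGAT, 5.14% hold CTTTGAA and 8.65% hold either. None of the 11 windows of the 10 genes holds either, which says only that these letters are not in these windows. Among pathway genes outside the 10 that passed the unadjusted test described below, 7 genes have 10 windows, and 1 window holds the motif, that of Sp5, a transcription factor gene induced by Wnt signalling. The 250 bases before the transcript start that the table gives for Axin2 (chr11:108920099-108920348, plus strand) and for Sp5 (chr2:70474673-70474922, plus strand) are printed because Axin2 was higher and Sp5 lower in all VHL-KO;SETD2-KO libraries and only the second holds the motif. Capitals mark CTTTGAT, which reads on the gene strand with its first base 104 bases upstream of the Sp5 start. The RefSeq gene Axin2 as a whole begins at 108917828, before this stretch, so transcripts with an earlier start are not covered by the window.
Axin2: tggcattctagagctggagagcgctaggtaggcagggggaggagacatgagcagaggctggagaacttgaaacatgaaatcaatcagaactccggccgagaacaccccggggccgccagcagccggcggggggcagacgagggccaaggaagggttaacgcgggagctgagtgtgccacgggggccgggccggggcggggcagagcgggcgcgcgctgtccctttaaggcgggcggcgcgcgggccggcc
Sp5: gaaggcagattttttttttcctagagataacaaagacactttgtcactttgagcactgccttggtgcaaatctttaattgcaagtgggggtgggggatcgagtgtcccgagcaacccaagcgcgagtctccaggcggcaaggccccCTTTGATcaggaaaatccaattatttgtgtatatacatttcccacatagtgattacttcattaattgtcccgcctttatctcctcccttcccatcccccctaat
The Axin2 stretch is 69.2% G and C with 24 CpG dinucleotides, and the Sp5 stretch is 46% G and C with 6. Over all windows of 300 bases the medians were 52.7% and 7 CpG.

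Axin2 (chr11:108917828-108950783, the RefSeq gene in GRCm38.p6) encodes the inducible Axin scaffold of the destruction complex. It had 49, 44 and 25 counts under VHL-KO and 152, 79 and 119 under VHL-KO;SETD2-KO. Scaled by TMM, which removes differences in library size and composition, its levels were 2.97, 4.07 and 2.34 CPM against 8.08, 4.45 and 7.46 CPM. The groups did not overlap, but VHL-KO;SETD2-KO replicate 3 lay close to VHL-KO replicate 2, and the other VHL-KO;SETD2-KO libraries were well above both. The means were 3.13 ± 0.877 CPM and 6.66 ± 1.94 CPM (SD, n = 3 each). The fitted log2 fold change, VHL-KO;SETD2-KO over VHL-KO, was 1.09 with a standard error of 0.47. Without VHL-KO replicate 4 it was 0.92 with a standard error of 0.36.

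Axin1 (chr17:26131217-26195811) encodes the constitutive Axin scaffold and is the closest relative of Axin2. Its levels were 29.0, 27.7 and 64.0 CPM in VHL-KO libraries and 30.8, 27.1 and 25.5 CPM in VHL-KO;SETD2-KO libraries. All libraries but VHL-KO replicate 4 lay within a narrow band, and that library was far above it. The log2 fold change was -0.53 with a standard error of 0.45, and -0.03 with a standard error of 0.14 without that library. Axin2 took 9.28%, 12.8% and 3.53% of the counts of the Axin pair in VHL-KO libraries (95% exact binomial intervals 6.94% to 12.1%, 9.48% to 16.8% and 2.29% to 5.16%). Its share in VHL-KO;SETD2-KO libraries was 20.8%, 14.1% and 22.6% (17.9% to 23.9%, 11.3% to 17.2% and 19.1% to 26.4%). These intervals cover counting error only. The shares of the groups did not overlap, although the interval of VHL-KO replicate 2 overlapped that of VHL-KO;SETD2-KO replicate 3. Per kilobase of exon, Axin2 reached 0.0324 to 0.130 of the Axin1 level in the first group and 0.145 to 0.259 in the second, so Axin1 was the main Axin transcript in every library.

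The other feedback inhibitors showed no separation of the groups on the CPM scale. Nkd1 (chr8:88521342-88594887), a Dishevelled-binding inhibitor, had levels of 4.18, 6.38 and 10.8 CPM against 11, 3.38 and 8.78 CPM. The lowest and the highest library both carried the label VHL-KO;SETD2-KO, and the groups overlapped over nearly their whole range. Its log2 fold change of 0.12 had a standard error of 0.57 (0.55 with a standard error of 0.52 without VHL-KO replicate 4), and it turned to -0.14 without VHL-KO replicate 1 and to -0.21 without VHL-KO;SETD2-KO replicate 2. Znrf3 (chr11:5276329-5444847), a ubiquitin ligase that removes Frizzled receptors from the cell surface, had levels of 9.88, 8.23 and 3.27 CPM against 8.66, 10.4 and 9.41 CPM. Only VHL-KO replicate 4 was low, and the rest were interleaved. On the log2 scale the fold change of Znrf3 was 0.41 with a standard error of 0.49, and 0.06 with a standard error of 0.20 without VHL-KO replicate 4.

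At the membrane, the co-receptor gene Lrp6 (chr6:134446476-134566913) had levels of 190, 167 and 33.3 CPM against 153, 129 and 169 CPM. VHL-KO replicate 1 held the highest level and VHL-KO replicate 4 by far the lowest. The direction of Lrp6 rested on that library. It was 0.21 (log2 fold change) with a standard error of 0.62 over the 6 libraries and -0.25 with a standard error of 0.17 without it.

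In the destruction complex, Apc, the large scaffold that holds beta-catenin for phosphorylation, had levels of 70.7, 75.0 and 11 CPM against 92.9, 83.1 and 97.5 CPM. All VHL-KO;SETD2-KO libraries were above all VHL-KO libraries. Apc had a log2 fold change of 0.80 with a standard error of 0.66, and 0.32 with a standard error of 0.14 without VHL-KO replicate 4, in which the gene stood at 0.151 of the mean of replicates 1 and 2. Ctnnb1 (chr9:120933400-120960507), which encodes beta-catenin, had levels of 386, 355 and 147 CPM against 528, 477 and 496 CPM. Its groups did not overlap either. The 3 VHL-KO;SETD2-KO libraries lay close together, at 500 ± 25.5 CPM against 296 ± 130 CPM (SD, n = 3 each). Ctnnb1 had a log2 fold change of 0.76 with a standard error of 0.48, and 0.43 with a standard error of 0.17 without VHL-KO replicate 4. Counts of the Ctnnb1 transcript give no measure of beta-catenin protein, whose level the complex sets.

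Among the TCF/LEF factors, Lef1 (chr3:131110297-131224357), which is chiefly an activator, had the lowest level per kilobase. It had 9, 5 and 9 counts against 12, 19 and 29 counts, or 0.546, 0.463 and 0.842 CPM against 0.638, 1.07 and 1.82 CPM. VHL-KO;SETD2-KO replicate 4 was the highest library, and replicate 2 lay inside the VHL-KO range. At these counts the log2 fold change of 0.93 had a standard error of 0.61, and that of 1.20 without VHL-KO replicate 4 had one of 0.62. Tcf7l1 (chr6:72626371-72789045), chiefly a repressor, had levels of 4.43, 3.89 and 11.9 CPM against 9.51, 7.43 and 8.59 CPM. VHL-KO replicates 1 and 2 were below every VHL-KO;SETD2-KO library and VHL-KO replicate 4 was above them all. Its log2 fold change was 0.34 with a standard error of 0.52, and 1.03 with a standard error of 0.23 without VHL-KO replicate 4. Tcf7l2 (chr19:55741797-55933659), the main TCF factor of many adult epithelia, had levels of 8.55, 6.20 and 5.14 CPM against 7.97, 9.57 and 10.5 CPM. The groups overlapped, since VHL-KO replicate 1 lay above VHL-KO;SETD2-KO replicate 2. Its log2 fold change was 0.49 with a standard error of 0.40, and 0.33 with a standard error of 0.24 without VHL-KO replicate 4.

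The make-up of the TCF/LEF family was read within each library, where library size plays no part. Of the reads on Lef1, Tcf7, Tcf7l1 and Tcf7l2 together, Tcf7l2 took 55.5%, 53.2% and 25.5% in VHL-KO libraries and 34.9%, 48.0% and 42.6% in VHL-KO;SETD2-KO libraries. Tcf7l1 took 28.7%, 33.3% and 58.8% against 41.6%, 37.3% and 34.9%. In VHL-KO replicate 4 the order of these factors by reads was the opposite of that in VHL-KO replicates 1 and 2. In VHL-KO;SETD2-KO, Tcf7l1 had more reads in replicate 2 and Tcf7l2 in the others. Per kilobase of exon, Tcf7l2 stood at 1.35, 1.11 and 0.302 of the Tcf7l1 level in VHL-KO and at 0.584, 0.897 and 0.849 in VHL-KO;SETD2-KO, so that Tcf7l1 led in all 3 libraries of the second group. Lef1 took 2.79% to 7.40% in every library, and Tcf7 took 9.32% to 20.7%.

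**Figure D1:**
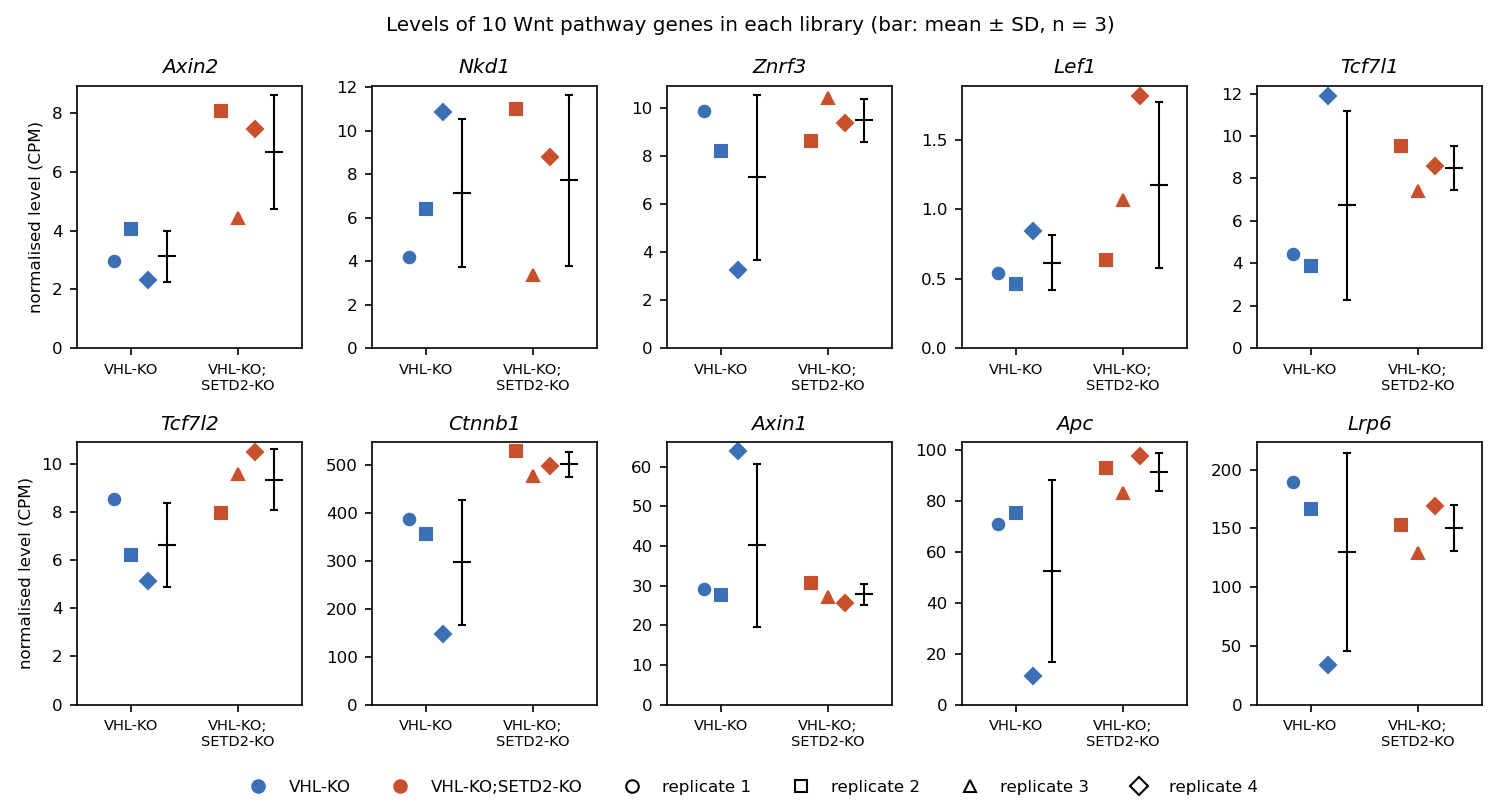
Level of each of the 10 genes (y axis, TMM-scaled CPM, from 0) in VHL-KO libraries (blue) and VHL-KO;SETD2-KO (orange), with the marker shape giving the replicate number and the bar the mean ± SD of 3 libraries. The groups do not overlap for Axin2, Ctnnb1 and Apc, and the diamond of VHL-KO replicate 4 stands far from the other VHL-KO libraries for Axin1, Tcf7l1, Apc and Lrp6.

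Across the 10 genes the mean was higher in VHL-KO;SETD2-KO libraries for 9 and lower for 1, Axin1, and the median log2 fold change was 0.45, beside 0.01 over all tested genes. Axin2, Ctnnb1 and Apc, 3 of 10, lay above all VHL-KO libraries in all VHL-KO;SETD2-KO libraries, as did 9.62% of all tested genes, and 0 of 10 lay below, as did 11% of all tested genes. With an unadjusted p under 0.05 and a fold change of 1.5 or more in edgeR's quasi-likelihood test, 1 of the 10, Axin2, was called higher, as were 2.65% of all tested genes. With p adjusted over all tested genes none of the 10 was called, 0% of all tested genes were called higher and 0.00684% lower. Because the genes were chosen with these values known, nothing is read from these counts.

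**Figure D2:**
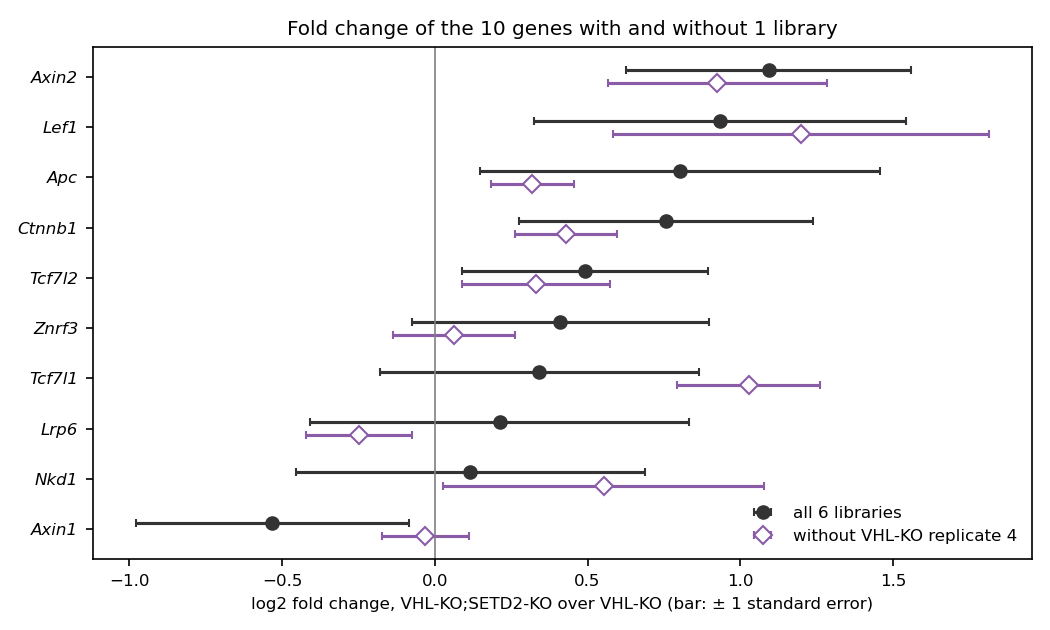
Log2 fold change of each gene (x axis, VHL-KO;SETD2-KO over VHL-KO, with bars of 1 standard error) over all 6 libraries (filled) and without VHL-KO replicate 4 (open). Axin2 is at 1.09 and 0.92, Tcf7l1 moves from 0.34 to 1.03, Axin1 from -0.53 to -0.03, and Lrp6 crosses 0.

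Much of the spread among VHL-KO libraries was that of replicate 4, and it ran with gene length. Over the tested genes with an exon length, 94.5% of them, the level in replicate 4 relative to replicates 1 and 2 had a median log2 value of 1.06 in the shortest of 4 equal length classes, 0.43 in the next, -0.33 in the class after that and -1.32 in the longest. Apc and Lrp6, with 13.2 and 9.37 kb of exon, were the longest of the 10 genes and stood at 0.151 and 0.187 of the mean of the other VHL-KO libraries. Tcf7l1, with 3.08 kb, was the shortest and stood at 2.86. Axin2, with 4.26 kb, stood at 0.664. Genes of similar length did differ, since Ctnnb1 (3.62 kb) stood at 0.398 and Axin1 (3.78 kb) at 2.26. The part of gene length in the fold changes was not tested.

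**Figure D3:**
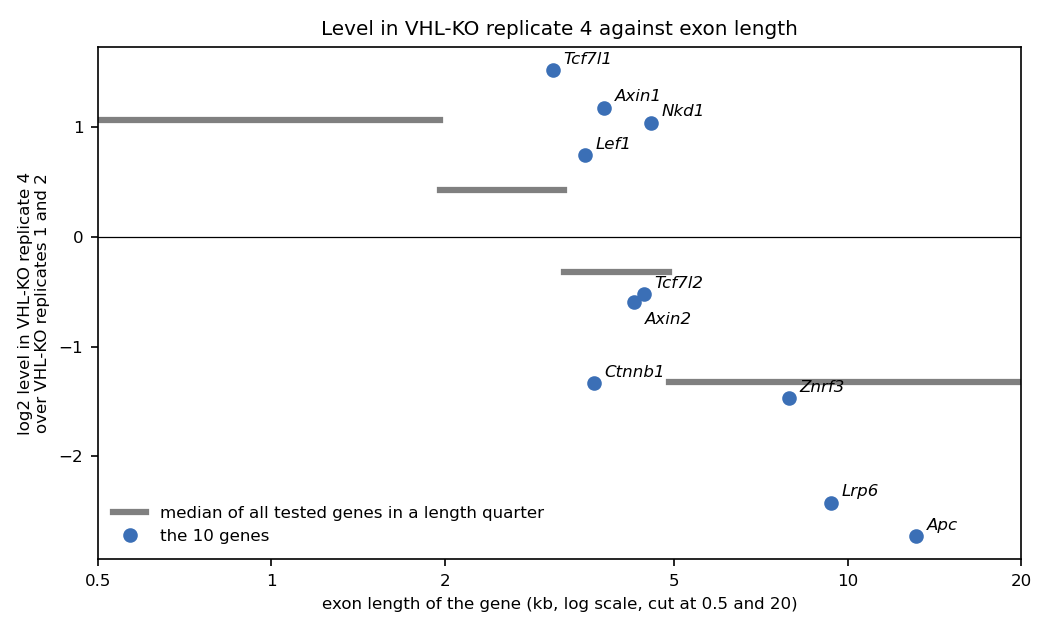
Log2 level in VHL-KO replicate 4 over VHL-KO replicates 1 and 2 (y axis) against exon length in kb (x axis, log scale) for the 10 genes (points) and as the median of all tested genes in each of 4 length classes (grey lines). The class medians go down from 1.06 to -1.32, and Lrp6 and Apc lie lowest on the right.

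Per kilobase of exon, levels of the 10 genes spanned a wide range. Ctnnb1 was first at 110 CPM per kb over the 6 libraries, followed by Lrp6 at 15.0, Axin1 at 9.01 and Apc at 5.45. Tcf7l1 (2.47), Tcf7l2 (1.80), Nkd1 (1.63), Axin2 (1.15) and Znrf3 (1.05) formed a lower group, and Lef1 was last at 0.256. Ctnnb1, Lrp6, Axin1, Apc and Tcf7l1 led in this order in both groups. Ctnnb1 stood clear of Lrp6 and Lef1 of the rest, whereas most neighbours in between lay within their spread. Axin1 and Apc were at 7.36 ± 0.710 and 6.93 ± 0.560 CPM per kb in VHL-KO;SETD2-KO (SD, n = 3). In VHL-KO, Nkd1 stood at 1.57 ± 0.745, Tcf7l2 at 1.5 ± 0.393, Znrf3 at 0.903 ± 0.436 and Axin2 at 0.734 ± 0.206 CPM per kb (SD, n = 3). Tcf7l1 and Tcf7l2 were just outside each other's spread in VHL-KO;SETD2-KO, at 2.76 ± 0.338 and 2.11 ± 0.287. Axin2 was ninth in that group and eighth in VHL-KO;SETD2-KO, where it stood at 1.56 ± 0.456 against 1.20 ± 0.112 for Znrf3, again within the spread.

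The labelled cell type, tubular epithelium, was checked against marker lists. Proximal tubule markers were abundant in every library, with 10 of 10 tested. They summed to 13819, 13058 and 27222 CPM against 6005, 9168 and 7286 CPM, the highest sum being that of VHL-KO replicate 4. In that library Slc34a1 stood at 14206 CPM (4979 and 4759 in replicates 1 and 2), whereas Lrp2 stood at 940 CPM (3384 and 3351). Of the 10 markers, 9 had a fitted fold change below 0 on the log2 scale and 4 were called lower in edgeR's test with no adjustment. Markers of cells that Ksp-Cre does not target were present as well. The 10 podocyte markers summed to 1617, 2198 and 2294 CPM against 5419, 2215 and 4850 CPM, with 10 of 10 fitted log2 fold changes above 0 and 6 called higher. The 10 endothelial markers summed to 2173, 2707 and 2147 CPM against 6173, 2203 and 5296 CPM, with 9 of 10 fitted log2 fold changes above 0 and 0 called. Markers of later tubule segments were summed too. In which tubule segments Ksp-Cre had deleted the genes cannot be read from these counts. Thick limb and distal tubule markers summed to 1803, 2501 and 7088 CPM against 1940, 5122 and 2273 CPM, and collecting duct markers to 57, 86.1 and 525 CPM against 91.8, 292 and 102 CPM, each with 2 of 9 called higher and with overlap. In both lists VHL-KO replicate 4 and VHL-KO;SETD2-KO replicate 3 were the highest of their groups. Stromal and mural markers (107 to 617 CPM) and immune cell markers (63.5 to 288 CPM) overlapped, with 0 called. All these calls are without adjustment, by which 2.65% of all tested genes were called higher and 4.68% lower. With adjustment 0% were called higher. The marker lists were chosen with earlier results of these data known. No marker in any of the lists was at 0 in every library. In bulk cells a change in the number of cells of a type and a change in RNA per cell cannot be told apart.

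Axin2 and the endothelial and podocyte sums were all high in VHL-KO;SETD2-KO replicates 2 and 4. Replicate 3 of that group lay just above the VHL-KO range in Axin2 (4.45 CPM). It lay inside that range in the endothelial sum (2203 CPM) and in the podocyte sum (2215 CPM). Among VHL-KO libraries, replicate 2 was highest and replicate 4 lowest in Axin2 and in the endothelial sum, whereas replicate 4 was highest in the podocyte sum. VHL-KO;SETD2-KO replicate 3 was also the only library with high Xist, and the part of sex in these values was not tested. For each 1000 CPM of endothelial markers, Axin2 was at 1.37, 1.5 and 1.09 CPM in the VHL-KO libraries and at 1.31, 2.02 and 1.41 CPM in the VHL-KO;SETD2-KO libraries. On this scale the groups overlapped, and the mean log2 difference, 1.08 on the CPM scale, was 0.24. For each 1000 CPM of podocyte markers Axin2 was at 1.84, 1.85 and 1.02 CPM against 1.49, 2.01 and 1.54 CPM, a mean log2 difference of 0.14, again with overlap. For each 1000 CPM of proximal tubule markers it was at 0.215, 0.312 and 0.0859 CPM against 1.35, 0.485 and 1.02 CPM, without overlap. This was not particular to Axin2. Relative to the proximal tubule sum Znrf3, Lef1, Tcf7l1, Tcf7l2, Ctnnb1, Axin1, Apc and Lrp6 were higher without overlap too, and only Nkd1 overlapped. The proximal tubule sum itself had a mean log2 difference of -1.20, with its highest level in VHL-KO replicate 4. Of the other 9 genes, Nkd1 lay below without overlap relative to the endothelial sum (mean log2 difference -0.78) and to the podocyte sum (-0.89), Axin1 lay below without overlap relative to the podocyte sum (-1.37), and the rest overlapped on both scales. The part of these cell types in the values of Axin2 and the other genes was not tested.

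**Figure D4:**
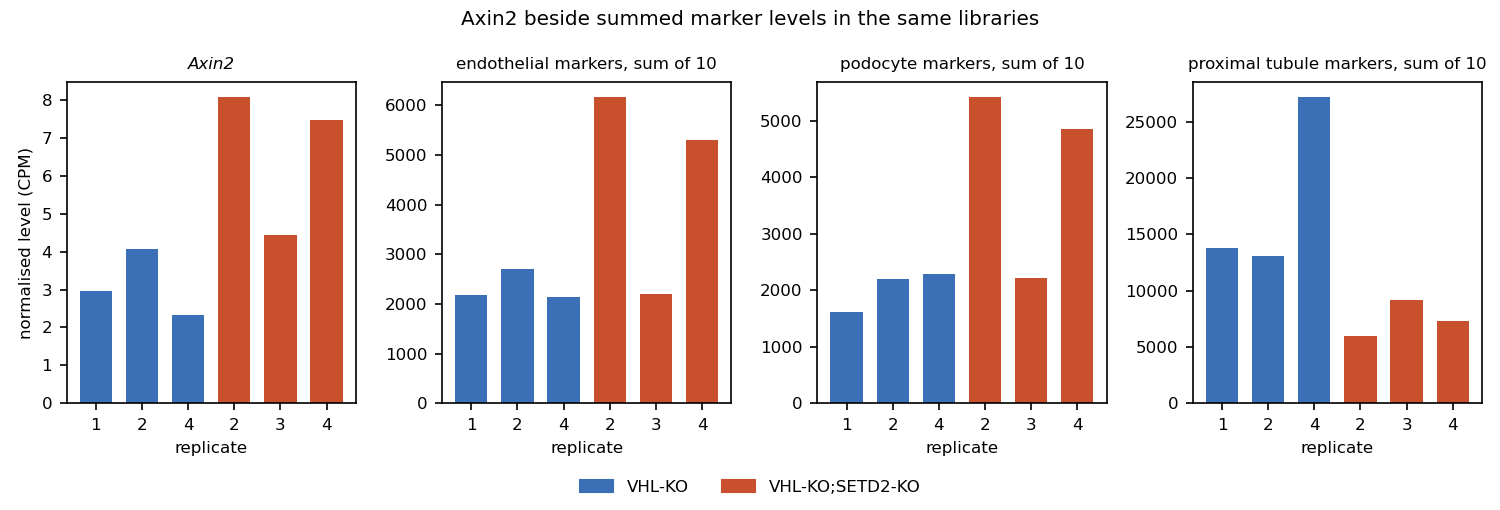
Level of Axin2 and summed level of 10 endothelial, 10 podocyte and 10 proximal tubule markers (y axes, TMM-scaled CPM, from 0) in each library, by replicate number, in VHL-KO (blue) and VHL-KO;SETD2-KO (orange). In Axin2 and in the endothelial and podocyte sums, VHL-KO;SETD2-KO replicates 2 and 4 are the highest bars, while the proximal tubule sum is lower in all 3 VHL-KO;SETD2-KO libraries.

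Genes whose profile was most like that of Axin2 were ranked by the root mean square difference of log2 CPM, each gene centred on its own mean, over 12401 tested genes with a mean log2 CPM of at least 1. This is a description with no test. Over the 6 libraries the nearest were Neu3 (0.0559), a sialidase gene, Lrrc49 (0.0656), Fry (0.067), Notch1 (0.0861), the gene of a Notch receptor, and Acer2 (0.0966), an alkaline ceramidase gene, beside a median distance of 0.841 over all genes compared. Over the 5 libraries without VHL-KO replicate 4 the nearest were Sipa1 (0.0311), Rcsd1 (0.0332), Egfl7 (0.0371), Neu3 (0.0379) and Ushbp1 (0.0388), and Neu3 was thus in both. Egfl7, a secreted protein gene of endothelial cells, is on the endothelial list used above. Over the 6 libraries, however, Egfl7 was at rank 2094 (0.566), Rcsd1 at 1527, Sipa1 at 1449 and Ushbp1 at 143. No other gene of the 10 was close. The nearest was Ctnnb1, at rank 546, over 6 libraries and Tcf7l1, at rank 960, over 5.

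The rest of the pathway was read from 8 lists of 108 genes that do not hold the 10, of which 77 passed the filter. These lists too were chosen with earlier results of these data known, so their counts of called genes are given as a description. By edgeR's quasi-likelihood test with an unadjusted p under 0.05 and a fold change of 1.5 or more, 7 of 77 were called higher in VHL-KO;SETD2-KO libraries and 3 of 77 were called lower, beside 2.65% and 4.68% of all tested genes. No pathway gene was called with p adjusted over all tested genes, by edgeR, DESeq2 or limma-voom, and the lowest adjusted p from edgeR was 0.625. The median log2 fold change over the 77 genes was 0.08, with 42 values above 0 and 35 below. In 15 of the 77 all VHL-KO;SETD2-KO libraries lay above all VHL-KO libraries and in 7 all lay below, beside 9.62% and 11% of all tested genes.

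**Figure D5:**
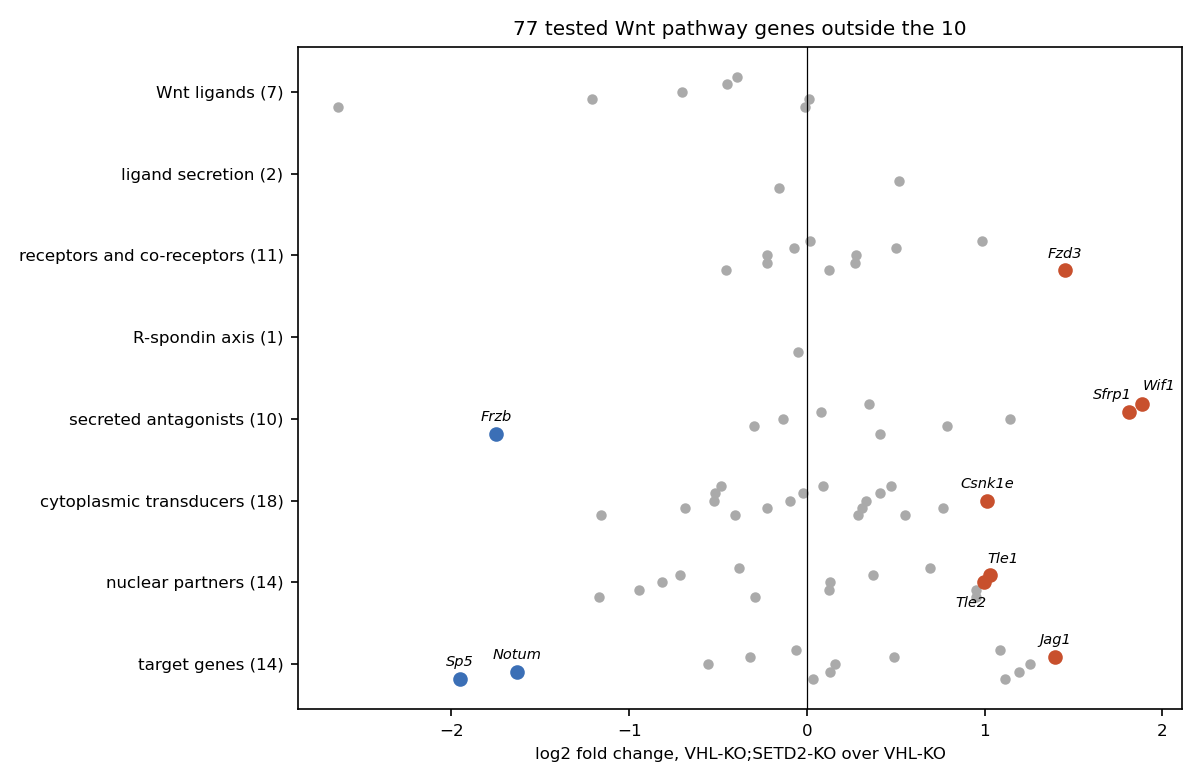
Log2 fold change (x axis, VHL-KO;SETD2-KO over VHL-KO) of the 77 tested pathway genes outside the 10, by list (y axis, number tested in brackets), with genes called at an unadjusted p in orange (7 higher) and blue (3 lower) and the rest in grey. Secreted antagonists and target genes each hold genes called in both directions, and the ligands lie mostly below 0.

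Among the Wnt ligands, 7 of 19 were tested, 0 were called and 6 of 7 fitted log2 fold changes were below 0, with a median of -0.45. Highest in mean CPM (not scaled by length) were Wnt5b, with 48, 41 and 185 counts against 52, 90 and 40, and Wnt7b, with 8, 16 and 146 counts against 8, 18 and 17. For both the high library was VHL-KO replicate 4, which alone set the Wnt7b log2 fold change of -2.64 (standard error 1.14) apart from 0, the other libraries having 8 to 18 counts. Without that library the fitted values changed. Wnt4, with 17, 5 and 93 counts against 33, 49 and 27, went from -0.71 (standard error 0.97) to 1.43 (standard error 0.52) and was then called higher, Wnt5b went to 0.04 and Wnt7b to -0.20. Wnt16, too low for the test over 6 libraries with 2, 1 and 0 counts against 13, 10 and 10, was tested and called higher in that fit (2.52, standard error 0.63). Wnt4 and Wnt16 are named here after their values were seen. Collecting duct markers summed to 57 and 86.1 CPM in VHL-KO replicates 1 and 2 and 525 CPM in replicate 4, and stromal and mural markers to 125, 114 and 617 CPM, and the part of these cells in the ligand values was not tested. Ligand secretion rests on Wls, the carrier that takes ligands to the surface, and Porcn, which acylates them. Wls had 2835, 1853 and 464 counts against 3383, 3695 and 2637, and Porcn had 76, 47 and 114 against 86, 153 and 70, and neither was called.

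Of the receptors and co-receptors, 11 of 14 were tested and 1 was called higher, Fzd3, which encodes a Frizzled receptor. It had 49, 32 and 14 counts against 129, 130 and 91, a log2 fold change of 1.45 with a standard error of 0.49. All VHL-KO;SETD2-KO libraries lay well above all VHL-KO libraries. Lrp5 and Fzd4, with the highest mean CPM of the list (not scaled by length), were not called. Lrp5, the other co-receptor, had a log2 fold change of 0.13 with a standard error of 0.47, but it stood at 38.8, 50.6 and 105 CPM against 80.5, 61.7 and 70.0 CPM, and without VHL-KO replicate 4 its value was 0.66 with a standard error of 0.19 and it was called higher. Fzd4, a Frizzled receptor prominent in endothelium, had 0.98 with a standard error of 0.56. Of the R-spondin axis only Lgr4, an R-spondin receptor, was tested, 1 of 8 genes, with 3338, 1778 and 285 counts against 2111, 2455 and 2072 and a log2 fold change of -0.05 with a standard error of 0.67. Rspo1, a ligand gene and the next in level, had 1 to 16 counts per library and was not tested.

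Secreted antagonists were called in both directions. Of 10 tested out of 16, 2 were called higher and 1 lower. Wif1, which binds Wnt ligands, had 50, 41 and 18 counts against 223, 85 and 236 (log2 fold change 1.88, standard error 0.57). Sfrp1, a secreted Frizzled-related decoy, had 622, 581 and 499 counts against 1702, 5075 and 1746 (1.81, standard error 0.54). In Sfrp1 the highest library was VHL-KO;SETD2-KO replicate 3, the one in which Axin2 was lowest in its group and the summed thick limb, distal tubule and collecting duct markers were highest. Without it the log2 fold change of Sfrp1 was 1.13 with a standard error of 0.45. The part of these cells, or of the sex of the mouse, was not tested. Frzb, another decoy of the same family, went the other way, with 308, 197 and 86 counts against 89, 28 and 113 (-1.75, standard error 0.62). Its raw counts overlapped, but its CPM levels did not. Dkk2, with Sfrp1 the highest of the list in mean CPM, binds Lrp5 and Lrp6 and was not called (1.14, standard error 0.77).

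Of the 18 cytoplasmic transducers, all tested, 1 was called higher. Csnk1e, the gene of a casein kinase 1 isoform that phosphorylates Dishevelled, had 232, 194 and 188 counts against 715, 468 and 569, a log2 fold change of 1.01 with a standard error of 0.37. Csnk1a1, the highest in mean CPM and the priming kinase of beta-catenin, had a log2 fold change of 0.77 with a standard error of 0.63, and Tnks2, a tankyrase that marks Axin for destruction, had 0.41 with a standard error of 0.67. Neither was called. Fitted values of 9 transducers were above 0 and of 9 below.

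Of the nuclear partners 14 of 15 were tested and 2 were called higher, both of them genes of Groucho-family co-repressors that bind TCF/LEF factors when beta-catenin is absent. Tle1 had 154, 108 and 104 counts against 425, 355 and 267 (log2 fold change 1.03, standard error 0.36), and Tle2 had 109, 89 and 74 against 222, 338 and 199 (0.99, standard error 0.39). Tle3 of the same family was not called and had a value of the opposite sign (-0.82, standard error 0.43). Ctbp1, a co-repressor and the highest of the list in mean CPM, had -0.71 with a standard error of 0.53.

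Of the target genes 14 of 16 were tested, with 1 called higher and 2 lower. Sp5 had 142, 78 and 288 counts against 52, 80 and 60 (log2 fold change -1.95, standard error 0.60). Notum, which encodes a secreted enzyme that inactivates Wnt ligands and is itself induced by the pathway, had 369, 262 and 437 counts against 138, 165 and 185 (-1.63, standard error 0.42). These lie on the opposite side from Axin2, and on the CPM scale all VHL-KO libraries were above all VHL-KO;SETD2-KO libraries for both. Jag1, which encodes a Notch ligand, had 123, 164 and 53 counts against 379, 561 and 332 (1.40, standard error 0.51). The targets with the highest mean CPM, the cyclin gene Ccnd1 (0.13, standard error 0.42) and Id2, which encodes an inhibitor of bHLH factors (-0.06, standard error 0.47), were not called.

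Against the marker sums the 10 called genes fell into different groups. Relative to the endothelial sum, and likewise to the podocyte sum, Sp5, Notum and Frzb were still lower and Wif1 still higher without overlap, while Fzd3, Sfrp1, Csnk1e, Tle1, Tle2 and Jag1 overlapped. Relative to the proximal tubule sum, whose own mean log2 difference was -1.20, Notum and Frzb overlapped. For each 1000 CPM of proximal tubule markers, Notum was at 1.62, 1.86 and 1.5 CPM against 1.22, 1.01 and 1.59, and Sp5 was at 0.623, 0.553 and 0.989 CPM against 0.460, 0.491 and 0.517, without overlap. The part of the cell make-up in these calls was not tested.

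Without VHL-KO replicate 4, 14 of 80 tested pathway genes were called higher and 6 lower, beside 8.29% and 7.14% of all genes then tested, and all 7 and all 3 genes named above were among them. The further calls, named after their values were seen, were Wnt4, Wnt16, Fzd2, Lrp5, Kremen1, Dact3 and Tbx3 higher. Fzd1, Fzd5 and Myc, the last from the list of target genes, were the further genes called lower. In this fit the 7 genes called higher over all 6 libraries had log2 fold changes between 0.96 (Tle2) and 1.82 (Sfrp1). The 3 called lower over all 6 libraries had values between -2.06 (Frzb) and -1.11 (Sp5). Among these 10 genes the lowest adjusted p from edgeR was 0.0785, for Notum. Calls at the unadjusted threshold were unsteady when other libraries were left out. Sfrp1, Sp5 and Notum were called in all 6 fits that left out 1 library. With the replicate number as a block, however, 9 of the 10 calls were lost, these 3 included (edgeR's unadjusted p 0.409, 0.0579 and 0.109), and only Wif1 was kept. Numbers 1 and 3 occur under 1 label each, so only libraries numbered 2 and 4 inform the genotype difference in the block fit. There Sfrp1, Sp5 and Notum had log2 fold changes of 0.99, -2.12 and -1.77, with standard errors of 1.20, 1.12 and 1.10. Lost calls in that fit thus go with fewer informative libraries. Fzd3 lost its call without VHL-KO;SETD2-KO replicate 2 and Wif1 without VHL-KO;SETD2-KO replicate 4, at unadjusted p-values of 0.055 and 0.052 from edgeR. Jag1 lost it without VHL-KO replicate 1 or VHL-KO;SETD2-KO replicate 3 (edgeR's unadjusted p 0.0788 to 0.0883). Tle1 lost it without VHL-KO replicate 1 or 2 or VHL-KO;SETD2-KO replicate 2 (0.0606 to 0.0903), Csnk1e without these or VHL-KO;SETD2-KO replicate 4 (0.0582 to 0.0979), and Frzb without these first 3 or VHL-KO;SETD2-KO replicate 3 (0.0573 to 0.0632). Tle2 kept its call only in the fit without VHL-KO replicate 4 (0.0594 to 0.128 in the others).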

How the data were processed

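RNA-seq counts of 6 libraries of mouse PTECs were analysed, 3 per genotype, with the genotype and replicate number taken from the sample labels and the age of 10 weeks from the study's methods. The authors extracted total RNA, made Illumina libraries and deposited raw counts per gene symbol, not normalized. The submitters' processing notes name HISAT2 2.0.4 and GRCm38. The counting program, the annotation and the use of strand are not given in the sources used here, so overlapping genes cannot be told apart. All 6 sample columns were used.

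The deposited counts were scaled by TMM and tested with the quasi-likelihood test of edgeR (4.0.16, under R 4.3.3). Of 46095 genes 14611 passed filterByExpr and entered the fit, with the genotype as the only factor and all 6 libraries in the fit. P-values were adjusted over all tested genes by the Benjamini-Hochberg method. They set the difference between the labels against the spread between the 3 libraries of each label, VHL-KO replicate 4 included. Genes were called at an unadjusted or adjusted p-value under 0.05 together with a fold change of 1.5 or more. TMM-scaled CPM had no prior count, and log2 CPM for the profiles had a prior count of 2. The fits were tested on simulated data in which all genes shared a dispersion and no library stood apart. That test does not cover a library such as VHL-KO replicate 4. Exon lengths were unions of GENCODE M21 basic exons, and gene positions and promoters came from RefSeq (GRCm38.p6). Of the list symbols 1, Ccn4, was matched through a RefSeq synonym. Promoter windows of the other 4 genes and protein sequences were not used here, so a planned comparison of proteins was not made.

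The 10 genes, the 8 pathway lists and the marker lists were chosen with earlier results of these data known. Named from the lists were all genes called without adjustment and the 2 with the highest mean CPM. Alternatives were DESeq2 1.42.0 size factors, its Wald test, limma 3.58.1 with voom, no filter, a minimum of 10 counts in every library, library sizes without the 20 top genes, a 2-fold threshold, raw library totals, the replicate number as a block and each library left out.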

Additional observations from a re-analysis of the deposited data

How the results depend on the processing

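The fold change of Axin2 kept its direction in all settings, at 0.92 to 1.33 on the log2 scale when 1 library was left out and 1.05 to 1.33 in the other planned settings. Chosen after seeing the data, levels relative to the summed endothelial markers gave 0.24 and relative to the summed podocyte markers 0.14. Of 131 fold change values of the 10 genes under alternatives, 124 moved by less than the replicate spread. With 1 library left out Nkd1 ranged from -0.21 (without VHL-KO;SETD2-KO replicate 2; -0.14 without VHL-KO replicate 1) to 0.55, and Lrp6 from -0.25 (without VHL-KO replicate 4) to 0.59. All 10 mean levels on raw library totals stayed within the spread.

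Over all tested genes, 387 were called higher without adjustment (634 with no filter, 179 to 1243 with 1 library left out) and 684 lower (1133 by DESeq2, 206 to 1078 with 1 left out). With adjustment 1 was called (57 by DESeq2, 2 with no filter, 0 at a minimum of 10 counts, 0 to 1 with 1 left out). Of the pathway genes 7 were called higher (4 to 14 with 1 left out) and 3 lower (5 by DESeq2, 2 to 6 with 1 left out). With adjustment 0 were called in every setting. The causes were not tested.

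Replicate numbers 2 and 4 occur under both labels, but no source says that they pair mice, and with 2 pairs the deviations of same-numbered libraries correlated at 0.16 and -0.32. In a fit that blocks on that number (the replicate block) 93 genes were called higher and 54 lower, 1 pathway gene was called higher (Wif1) and 1 lower (Wnt7b, not among the 10 called without it, of which 9 lost their call), and Axin2 had a log2 fold change of 1.33 with a standard error of 1.10. The adjusted count stayed at 1. Low counts limit Lef1, with 5 to 29 reads per library.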
